A study of Mus musculus with 8 samples.

Results

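The genes described here are 10 components and direct outputs of the circadian clock, measured by RNA sequencing in the liver of db/db mice, which lack a working leptin receptor and become obese and diabetic. The genes were chosen by symbol: Arntl, Npas2, Per1, Per2, Per3, Cry1, Nr1d1, Nr1d2, Dbp and Ciart. They are 10 of the 41388 features in the deposited tables. Enough reads for the comparison of groups were counted for 9 of them and for 12270 features in all. All 8 livers came from male db/db littermates, labelled as strain C57B/6J and 10 weeks of age, randomised at 5 weeks and injected in the tail vein with an adenovirus. The virus encoded green fluorescent protein in 4 mice (AdGFP) and NAMPT in 4 mice (AdNAMPT), and the series text gives an overexpression of 4 to 5 weeks, while the study describes shorter intervals after adenovirus for other measurements. NAMPT makes the NAD+ precursor nicotinamide mononucleotide. The db/db mutation, the virus and the injection were therefore shared by both groups, no lean or uninjected group was analysed here, and the promoter of the virus is not given in the sources used here. The mice were kept in alternating light and dark, but the time of day at which these livers were taken and whether the mice had fed are not given in the sources used here.

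The mammalian clock is a feedback loop of transcription. ARNTL (also called BMAL1) pairs with CLOCK or NPAS2, binds E-box sequences and turns on the Per and Cry genes, whose proteins in turn repress it. The nuclear receptors NR1D1 and NR1D2 (REV-ERB alpha and beta) repress Arntl, DBP carries the rhythm to other genes, and CIART is a clock-driven repressor that feeds back on ARNTL and CLOCK. In liver this loop sets daily rhythms of sugar, lipid and bile acid metabolism, and NAMPT itself is both a clock target and the source of NAD+ for the deacetylase SIRT1, which acts on clock proteins. Since the transcripts cycle, a single time point shows a position in the cycle together with the height of the cycle.

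The study's question was what NAMPT changes in these diabetic livers, and the comparison was AdNAMPT against AdGFP. Libraries held 12006713 to 19879814 counts, so that 3 counts were worth 0.151 to 0.250 CPM, the count of a gene scaled to a common library total. Nampt itself, counted on the mouse gene, had 102.3, 136.8, 152.7 and 141.6 CPM in the AdGFP livers and 148.8, 120.5, 177.8 and 168.1 CPM in the AdNAMPT livers. These and all later values by liver are listed in the order of replicates 1 to 4. The groups overlapped (log2 fold change 0.08, SE 0.15, limma adjusted p = 0.915). The fold of Nampt was 1.06, with a 95% confidence interval of 0.838 to 1.33. The hepatocyte NAMPT overexpression that the paper's methods aimed for lies above this interval. An increase of that size was therefore not seen in the Nampt counts of these livers, and its cause was not tested. The comparison is between unlike measures. The methods set that aim for shorter times after virus than the 4 to 5 weeks given for these livers. The paper shows it by quantitative PCR, for a different virus vector (adeno-associated virus). The targeted transcript does not separate the labels, and groups are named by their labels throughout. The 10 hepatocyte markers summed to 110027 to 138340 CPM in AdGFP and 108730 to 135397 CPM in AdNAMPT, with none of the 10 at 0 in any library.

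Several clock genes hold matches to recognised control sequences near their start sites. The matches are shown because clock proteins bind sequences of these kinds. Windows from 250 bases before to 50 bases after the start were taken from RefSeq (GRCm38.p6), where 9 of the 10 genes had an entry. Per2 did not. The sites below are in capitals, written 5′ to 3′ on the gene's strand.
Ciart, chr3:95882255-95882356, minus strand: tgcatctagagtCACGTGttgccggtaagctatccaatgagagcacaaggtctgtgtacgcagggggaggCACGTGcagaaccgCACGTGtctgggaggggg
Cry1, chr10:85185097-85185145, minus strand: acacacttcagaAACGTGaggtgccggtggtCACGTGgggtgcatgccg
Per1, chr11:69098771-69098800, plus strand: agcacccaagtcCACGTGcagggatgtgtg
Nr1d1, chr11:98775388-98775417, minus strand: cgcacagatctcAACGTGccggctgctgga
Per3, chr4:151044804-151044882, minus strand: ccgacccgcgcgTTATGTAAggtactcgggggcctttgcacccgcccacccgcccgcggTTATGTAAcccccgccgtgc
Arntl, chr7:113207528-113207556, plus strand: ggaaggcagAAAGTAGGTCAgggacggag

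The E-box CACGTG, bound by ARNTL with CLOCK or NPAS2, stood 3 times in the Ciart window, at 116, 58 and 44 bases before the start, and once each in the windows of Cry1 (60 bases before) and Per1 (166 bases before). It was present in 8.09% of the 27025 genes in the table. The weaker E-prime box CACGTT was found on the other strand, as AACGTG, in Cry1 and Nr1d1, and is in 5.44% of genes. Per3 held 2 copies of the D-box TTATGTAA, bound by DBP and its relatives. The D-box was searched as TTATGTAA or TTACGTAA, and either is in 1.23% of genes. The Arntl window held an RORE, the site at which NR1D1 and NR1D2 compete with the ROR activators, 26 bases after the start. An RORE was found in 0.459% of genes. Both strands were searched for each motif. No window held the cyclic AMP response element TGACGTCA, which is in 2.03% of genes, and the windows of Npas2, Dbp and Nr1d2 held none of the letters searched. A match is a stretch of letters and no binding was measured in these livers.

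Per length of transcript, the repressor and output genes stood above Arntl and Npas2. In RPKM (CPM divided by exonic length in kilobases), Nr1d2 had the highest mean over the 8 libraries at 16.7, followed by Dbp at 13.9, and Nr1d2 was above Dbp in 7 of 8 libraries. Ciart (5.76), Per2 (5.66), Nr1d1 (5.15), Per1 (4.24), Per3 (3.94) and Cry1 (3.15) formed a middle range whose neighbours changed places between mice, each holding its rank over the next in 4 to 6 of the 8 libraries. Arntl, at 0.963 RPKM, was below Cry1 in all 8 libraries. Npas2, at 0.0800 RPKM, was below Arntl in all 8. Clock, whose protein is the alternative to NPAS2 as partner of ARNTL, was at 6.29 to 9.47 RPKM, which was 5.36 to 12.2 times the level of Arntl. Dbp was 8.98 to 19.4 times as high as Arntl in AdGFP and 12.6 to 19.6 times in AdNAMPT, both in RPKM. In RPKM, Arntl and Npas2 were lower than Nr1d1, Dbp and Ciart in every liver of both groups. To compare livers, the mean of Arntl and Npas2 minus the mean of Nr1d1, Dbp and Ciart was taken in each on log2 CPM scaled by the trimmed mean of M-values (TMM-scaled), a scale without correction for length, so that it compares livers and not genes. It was -4.15 ± 0.206 (SD, n = 4) in AdGFP and -4.11 ± 0.246 (SD, n = 4) in AdNAMPT, the ranges overlapped, and its Npas2 part rests on 1 to 12 reads.

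**Figure D1:**
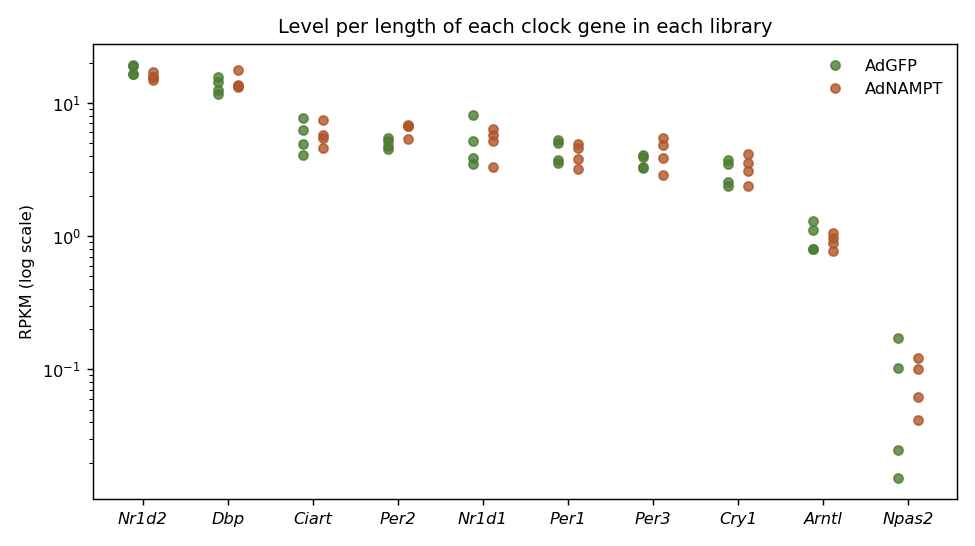
RPKM on a log scale for each clock gene in each of the 8 libraries, ordered by mean level, with AdGFP in green and AdNAMPT in orange. Arntl and Npas2 lie below the other genes in every library, while the 6 genes from Ciart to Cry1 overlap.

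None of the 9 tested clock genes differed between the groups after adjustment for all genes (limma with sample weights, Benjamini-Hochberg adjusted p of at most 0.05), and neither edgeR nor DESeq2 called one. Over all tested genes 34 passed, which is 0.277%. Without adjustment, 2 of the 9 had p under 0.05, Nr1d2 (lower with AdNAMPT) and Per2 (higher), where 9.69% of all tested genes did. Of the 9, 3 were higher and 6 lower, though the signs of Cry1, Dbp and Nr1d1 changed with the test, the scaling or the libraries used, with a median log2 fold change of -0.05 against 0.0015 for all tested genes. The smallest adjusted p was 0.312. In whole liver, fewer cells of a type and less RNA per cell cannot be told apart.

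**Figure D2:**
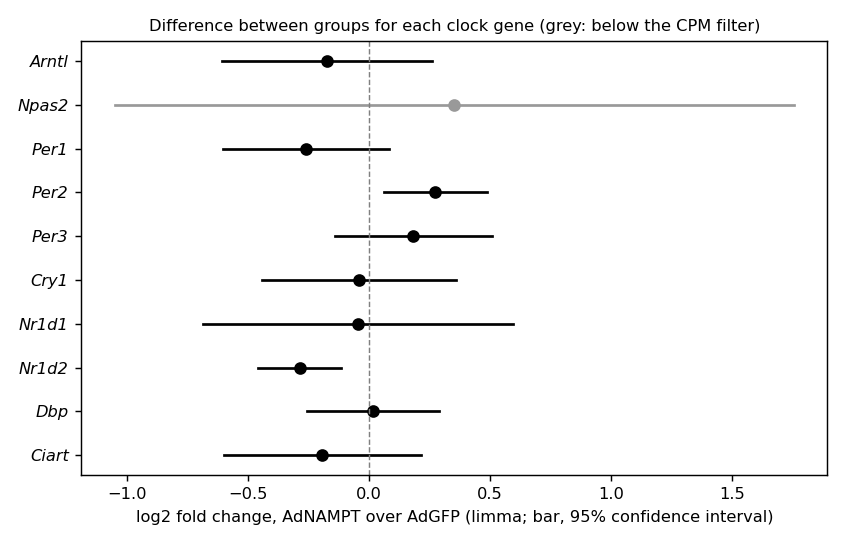
Log2 fold change of AdNAMPT over AdGFP with its 95% confidence interval for each clock gene. The intervals of Per2 (above 0) and Nr1d2 (below 0) leave out 0 before adjustment, the other 8 span it, and Npas2 in grey was below the level needed for the test.

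Nr1d2 showed the most even level of the 10 and the smallest unadjusted p. The gene (ENSMUSG00000021775, chromosome 14, 18204054 to 18239127, GRCm38) encodes REV-ERB beta, a repressor of Arntl. It had 96.4, 81.8, 94.97 and 81.7 CPM in the AdGFP livers and 77.5, 73.7, 85.2 and 77.3 CPM in the AdNAMPT livers. AdGFP replicates 1 and 3 were the highest, and AdNAMPT replicate 3 was above AdGFP replicates 2 and 4. The groups overlapped in CPM, but not after TMM scaling, where Nr1d2 was the only one of the 9 without overlap and 4.79% of all tested genes had none. The fold was 0.820 (95% confidence interval 0.727 to 0.924, limma adjusted p = 0.312). Its standard deviation within groups was 0.098 on the log2 scale, the lowest of the 10, against a median of 0.178 for all tested genes.

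Nr1d1 encodes REV-ERB alpha, the paralog with the same role (ENSMUSG00000020889, chromosome 11, 98767932 to 98775333). Its levels were 25.0, 16.0, 10.6 and 11.8 CPM in the AdGFP livers and 15.9, 17.8, 10.2 and 19.5 CPM in the AdNAMPT livers. The highest and the lowest AdGFP livers spanned nearly all of the AdNAMPT values. The fold of 0.969 had a wide interval, 0.621 to 1.51 (limma adjusted p = 0.977), so differences of either sign within it are not excluded. Nr1d2 was 2.37 to 5.50 times as high as Nr1d1 per length in AdGFP and 2.44 to 5.16 times in AdNAMPT. Exons of Nr1d1 overlap those of Thra on the opposite strand by 263 bases, and since the use of strand in counting is not given in the sources used here, reads there cannot be assigned with certainty.

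The 3 Period genes, whose proteins repress ARNTL and CLOCK, did not share a direction. Per2 (ENSMUSG00000055866, chromosome 1, 91415982 to 91459324) had 26.2, 30.2, 31.8 and 27.8 CPM in the AdGFP livers and 39.2, 39.8, 38.8 and 31.2 CPM in the AdNAMPT livers. AdNAMPT replicates 1 to 3 lay above every AdGFP liver, while replicate 4 fell among them. The fold was 1.21 (95% confidence interval 1.04 to 1.401, limma adjusted p = 0.431). Without AdGFP replicate 1 or without AdNAMPT replicate 2 its unadjusted p was no longer under 0.05, with a log2 fold change of 0.22 in both.

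Per1 (ENSMUSG00000020893, chromosome 11, 69095217 to 69109960), which also responds directly to glucocorticoid and cyclic AMP signals, gave 27.9, 19.8, 29.6 and 21.0 CPM in the AdGFP livers and 25.7, 18.0, 27.6 and 21.5 CPM in the AdNAMPT livers. Each group held high and low livers and they overlapped widely, with a fold of 0.835 (interval 0.658 to 1.06, limma adjusted p = 0.641). Per3 (ENSMUSG00000028957, chromosome 4, 151003652 to 151044665) gave 37.9, 38.7, 31.7 and 31.3 CPM in the AdGFP livers and 27.7, 36.8, 52.3 and 46.3 CPM in the AdNAMPT livers. Both its lowest and its highest livers were in AdNAMPT, and its fold was 1.13 (interval 0.906 to 1.42, limma adjusted p = 0.737). The ratio of Per2 to Per1 in RPKM was 0.903 to 1.47 in AdGFP and 1.35 to 2.12 in AdNAMPT, and these ranges overlapped.

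Cry1, the partner of the PER proteins in repression (ENSMUSG00000020038, chromosome 10, 85131702 to 85185054), had 7.72, 7.13, 11.2 and 10.5 CPM in the AdGFP livers and 10.7, 9.22, 12.5 and 7.13 CPM in the AdNAMPT livers. Each group again held both high and low livers. The fold was 0.972 (interval 0.736 to 1.28, limma adjusted p = 0.968).

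Of the activators, Arntl (ENSMUSG00000055116, chromosome 7, 113207465 to 113314122) had 2.32, 2.33, 3.76 and 3.22 CPM in the AdGFP livers and 2.25, 3.07, 2.82 and 2.59 CPM in the AdNAMPT livers, from 27 to 63 reads a library. The AdNAMPT values lay almost within the AdGFP range, and the interval of the fold ran from 0.656 to 1.20 (limma adjusted p = 0.825). Npas2 (ENSMUSG00000026077, chromosome 1, 39193731 to 39363234) was the one gene below the filter of more than 1 CPM in at least 3 libraries. Its reads were 12, 7, 2 and 1 in the AdGFP livers and 7, 7, 4 and 5 in the AdNAMPT livers. At this depth AdGFP replicates 3 and 4 were at or under 3 reads, and the fold in a fit without the filter, 1.28, had an interval from 0.483 to 3.38.

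The output genes overlapped between the groups. Dbp, an activator of D-box genes and a direct target of ARNTL (ENSMUSG00000059824, chromosome 7, 45705088 to 45710155), had 45.8, 41.9, 34.3 and 36.4 CPM in the AdGFP livers and 38.4, 39.3, 39.8 and 51.6 CPM in the AdNAMPT livers. AdNAMPT replicate 4 was the highest of all 8 and the other 3 lay inside the AdGFP range. The fold was 1.01 (interval 0.837 to 1.22, limma adjusted p = 0.982). Exons of Dbp overlap those of Sphk2 on the opposite strand by 491 bases, with the same uncertainty as for Nr1d1. Ciart, a repressor of ARNTL and CLOCK also known as CHRONO (ENSMUSG00000038550, chromosome 3, 95878503 to 95882251), had 14.0, 9.18, 17.4 and 11.04 CPM in the AdGFP livers and 16.9, 12.4, 10.3 and 13.0 CPM in the AdNAMPT livers. The AdNAMPT livers fell inside the AdGFP range, with a fold of 0.875 (interval 0.659 to 1.16, limma adjusted p = 0.787).

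**Figure D3:**
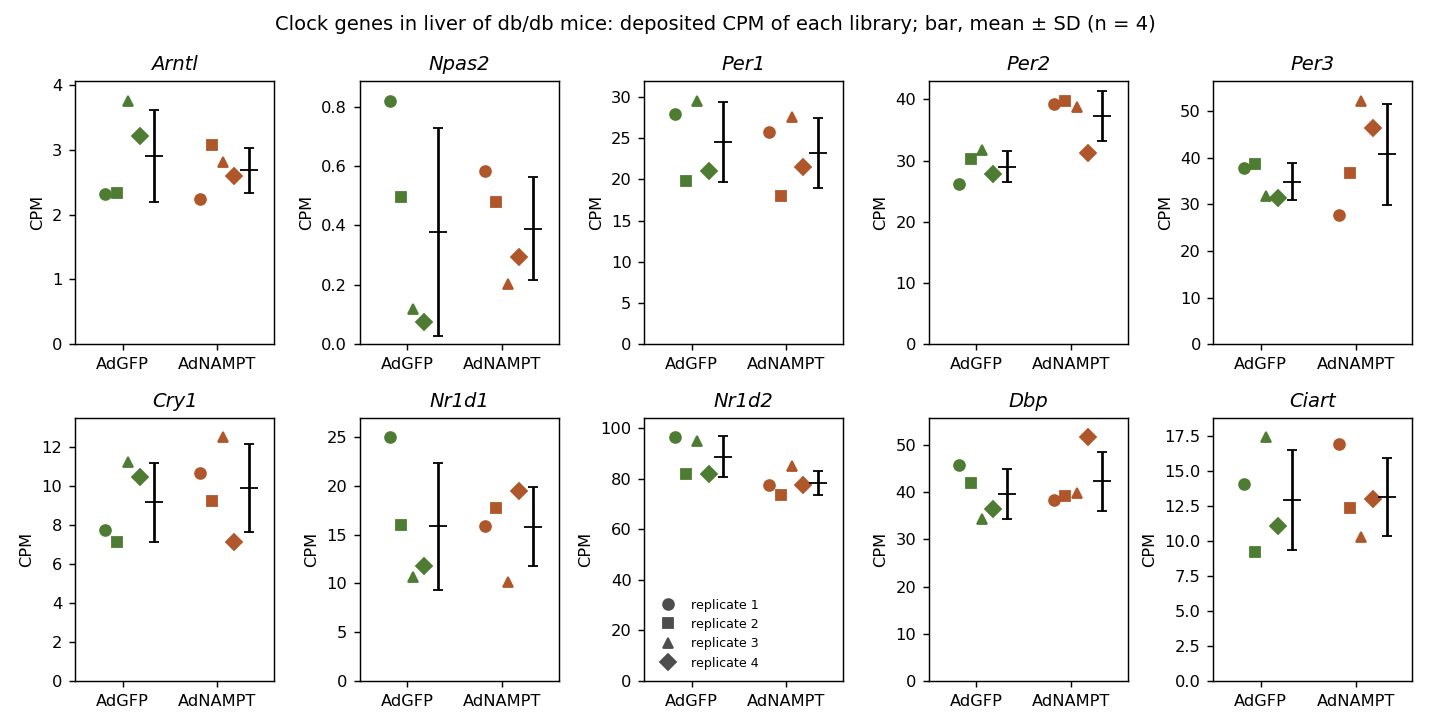
Deposited CPM of each clock gene in each liver on axes that start at 0, with one symbol for each replicate number and a bar for the mean ± SD (n = 4 a group). The groups overlap for all 10 genes, and AdNAMPT replicate 4 sits apart from its group for Per2 (31.2 CPM) and Dbp (51.6 CPM).

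For most of the genes the livers of one group differed widely, with Nr1d2 (0.098) and Per2 (0.144) the most even. The within-group standard deviation of the 9 tested genes had a median of 0.264 on the log2 scale, against 0.178 for all tested genes, and reached 0.498 for Nr1d1. A wide spread was not particular to them. Among the lists described below, the median was 0.323 for genes that follow the clock, 0.320 for Kupffer cell markers and 0.426 for cholangiocyte markers. It was 0.228 for temperature and heat shock genes, 0.221 for hepatocyte markers and 0.183 for sinusoidal endothelial markers. Other loop genes (0.172) and stellate cell markers (0.160) were below 0.178. In AdGFP, replicates 1 and 2 had the higher Dbp, Nr1d1, Per3 and Npas2 and the lower Arntl and Cry1, and replicates 3 and 4 the reverse. In AdNAMPT, replicate 4 combined the highest Dbp and Nr1d1 with the lowest Cry1 and Per2, and replicate 3 combined the lowest Nr1d1 with the highest Cry1 and Per3.

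These patterns were followed through the correlations among the 10 genes over the 8 livers, on TMM-scaled log2 CPM. Of the 45 gene pairs 23 were positive and 22 negative, and 6 had an exact permutation p under 0.05 for Pearson's r, none of them after adjustment over the 45. Cry1 ran against Dbp most closely, with r = -0.92 (exact permutation p = 0.0016, adjusted p = 0.0703) and Spearman's rho = -0.81 (exact permutation p = 0.0218, adjusted p = 0.314). Without the 2 livers farthest from the median, r was -0.83. Cry1 also ran against Nr1d1, with r = -0.86 (exact permutation p = 0.0075, adjusted p = 0.169), rho = -0.88 (exact permutation p = 0.0072, adjusted p = 0.163) and r = -0.99 without the 2 farthest livers. Nr1d1 and Dbp went together (r = 0.76, exact permutation p = 0.0297, adjusted p = 0.283, rho = 0.79, exact permutation p = 0.0279, adjusted p = 0.314, and r = 0.78 without the 2 farthest). Per1 went with Nr1d2 (r = 0.73, exact permutation p = 0.0439, adjusted p = 0.329, rho = 0.69, exact permutation p = 0.0694, adjusted p = 0.467). For this pair r was 0.46 without the 2 farthest livers, and within the groups it was 0.95 in AdGFP and 0.72 in AdNAMPT. The last 2 pairs held Npas2, with at most 12 reads a library. Npas2 had r = 0.81 to Nr1d1 (exact permutation p = 0.0166, adjusted p = 0.250, rho = 0.67, exact permutation p = 0.0831, adjusted p = 0.467, r = 0.78 without the 2 farthest). It had r = -0.75 to Arntl (exact permutation p = 0.0315, adjusted p = 0.283, rho = -0.88, exact permutation p = 0.0072, adjusted p = 0.163), which was -0.39 without the 2 farthest. All points share a library and its scaling, and no batch or time label was available to compare within. In the names of the libraries the mouse numbers of replicates 1 and 2 run apart from those of replicates 3 and 4 in both groups, and what those numbers mark is not given in the sources used here, so its part in these relations was not tested.

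**Figure D4:**
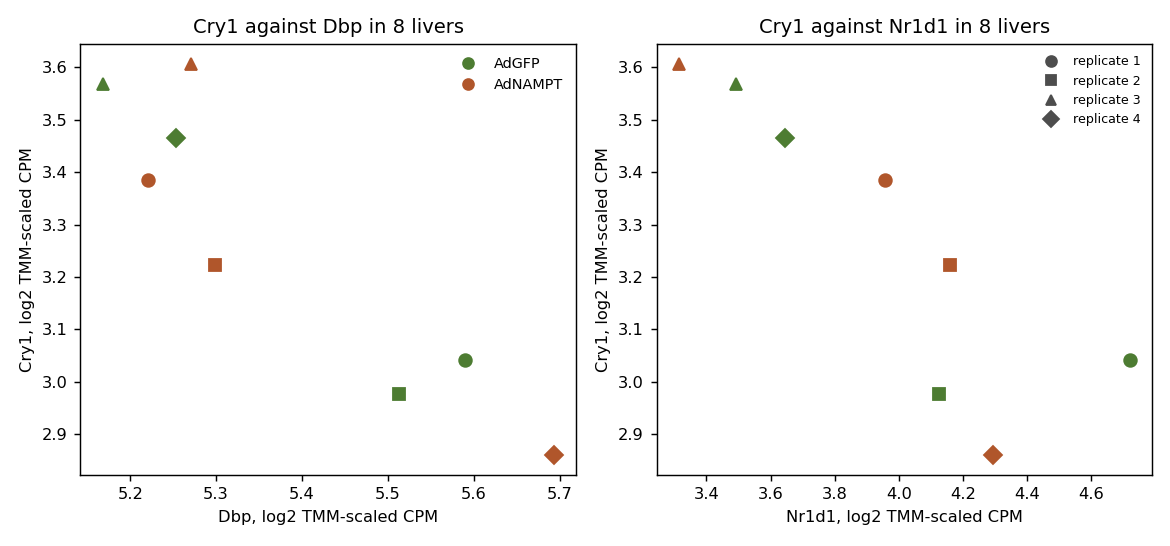
TMM-scaled log2 CPM of Cry1 against Dbp (left) and against Nr1d1 (right), one point a liver, with colour for the group and shape for the replicate number. Over the 8 livers, those with more Dbp or Nr1d1 had less Cry1 (r = -0.92 and -0.86), and neither relation passed adjustment over 45 pairs. Within AdNAMPT the relation to Dbp rests on replicate 4 (Dbp 5.69, Cry1 2.86). Replicates 1 to 3 of AdNAMPT had nearly equal Dbp (5.22, 5.30 and 5.27).

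None of the other genes of the loop passed the adjusted test either. The 19 further genes of the list included CLOCK, CRY2, the ROR receptors, the DEC repressors, kinases and ubiquitin ligases, and also Nampt and Sirt1. Of these 19, 18 were tested and 0 were called by limma, with a median log2 fold change of -0.05. Unadjusted p was under 0.05 for 9.69% of all tested genes and for 2 of the 18. The 2 were Bhlhe41, which encodes the repressor DEC2 (log2 fold change 0.97, SE 0.36, adjusted p = 0.453), and, named after its value was seen, Btrc, a ubiquitin ligase subunit that acts on PER proteins (log2 fold change -0.20, adjusted p = 0.511). Bhlhe41 had 2.80, 1.55, 0.777 and 1.17 CPM in the AdGFP livers and 4.58, 3.14, 2.11 and 3.30 CPM in the AdNAMPT livers, with AdNAMPT replicate 3 inside the AdGFP range. Next in size were Fbxl21 (-0.26) and Timeless (-0.25).

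Of 26 genes known to follow the clock in liver, all 26 were tested and 0 were called, with a median of -0.11. Unadjusted p was under 0.05 for 4 of them, where it was for 9.69% of all tested genes. Rgs16, a regulator of G-protein signalling, gave 61.9, 80.6, 75.4 and 50.7 CPM in the AdGFP livers and 76.04, 182.1, 91.6 and 99.2 CPM in the AdNAMPT livers. AdNAMPT replicate 2 was far above the rest and replicate 1 was within AdGFP (log2 fold change 0.79, SE 0.25, limma adjusted p = 0.392). Avpr1a, a vasopressin receptor, had -0.63, and Elovl3, a fatty acid elongase with a strong daily rhythm, 0.53, neither with an unadjusted p under 0.05. The remaining 3 with unadjusted p under 0.05, named here after their values were seen, were Klf10 (0.48), Nfil3 (-0.37), whose protein opposes DBP at D-boxes, and Coq10b (-0.25).

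Genes that follow body temperature or heat shock, which cycle with feeding and activity, were counted beside them. Of 14, 12 were tested, 0 were called and 1, Hsp90ab1 (log2 fold change -0.19, named after its value was seen), had unadjusted p under 0.05, where 9.69% of all tested genes did. The cold-inducible Cirbp (0.44) and Rbm3 (0.29) and the heat shock gene Hsph1 (-0.42) had the largest values among the 12 tested. Hspa1a and Hspb1 were below the filter. In the fit without it, Hspa1a had 1.27 (limma unadjusted p = 0.0185, adjusted p = 0.581) on 1 to 13 reads a library. There Hspb1 had 0.55 (limma adjusted p = 0.809) on 3 to 21 reads. In that fit 1721 of 24192 genes had unadjusted p under 0.05.

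None of the markers that were tested passed the adjusted test. All 8 Kupffer cell markers were lower with AdNAMPT, led by Timd4 (-0.83), Vsig4 (-0.51) and Clec4f (-0.45). Of the 8, 3 had unadjusted p under 0.05 and 2 did not overlap between groups after TMM scaling. Over all 12270 tested genes 6080 were lower, 9.69% had unadjusted p under 0.05 and 4.79% did not overlap. The sum of the 8 markers ran from 266.7 to 338.7 CPM in AdGFP and 200.3 to 328.3 CPM in AdNAMPT. Sums overlapped for 7 sinusoidal endothelial markers (261.8 to 302.1 and 283.4 to 320.5 CPM), 7 stellate cell markers (317.1 to 366.3 and 348.8 to 402.8 CPM) and 5 cholangiocyte markers (26.5 to 42.2 and 29.3 to 44.3 CPM). Among these, Lyve1 (0.34), Pecam1 (0.13) and Clec4g (-0.12), Col1a1 (0.64), Pdgfrb (0.33) and Col3a1 (0.33), and Sox9 (0.81), Krt19 (-0.37) and Krt7 (0.10) had the largest log2 fold changes of their lists. Unadjusted p was under 0.05 for 0 endothelial, 2 stellate and 1 cholangiocyte markers, all higher. The cholangiocyte marker was Sox9, with 6 to 21 reads a library. Its highest AdGFP value was 0.957 CPM, so it passed the filter of more than 1 CPM only through AdNAMPT livers. Its difference is therefore a description only. Of the hepatocyte markers 8 of 10 were lower, 1 with unadjusted p under 0.05, and the largest values were those of Tat (-0.56), Cps1 (-0.27) and Cyp2e1 (-0.27). The 6 T cell markers together reached 1.90 to 2.46 and 2.33 to 4.89 CPM, 2 of them were at 0 in at least 1 library, and none passed the filter for the test. In the fit without the filter 3 of the 6 had unadjusted p under 0.05, all higher with AdNAMPT: Cd3e (limma adjusted p = 0.279), Cd3d (adjusted p = 0.596) and Cd3g (adjusted p = 0.650), with at most 6, 7 and 26 reads a library. Over all genes in that fit 1721 of 24192 had unadjusted p under 0.05. The part of these cells in the clock gene values was not tested.

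Likeness to Dbp and Arntl was ranked across the tested genes by Pearson's r over the 8 livers after centring on each group. The 10 clock genes were left out of the ranking beforehand. Most like Dbp were Pak1 (0.965), Smpd4 (0.962), Cep57l1 (0.951), Acp1 (0.948) and Chm (0.947). Most opposed were Cox4i1 (-0.976), Hectd3 (-0.974), Pagr1a (-0.972), E130309D02Rik (-0.962) and Dnaja1 (-0.959). For Arntl the most alike were 9130401M01Rik (0.967), Tsr2 (0.960), Pdcd6 (0.953), Tnxb (0.951) and Efemp1 (0.948), and the most opposed Sgce (-0.975), Ralgapa1 (-0.972), Prpf39 (-0.966), 3110082I17Rik (-0.963) and Trmt1l (-0.963). The extremes of so many genes over 8 points are a description only.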

How the data were processed

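Libraries from liver RNA of 8 db/db mice were sequenced as single reads of 50 bases. Per the labels ribosomal RNA was removed with Ribo-Zero, but poly-A selection is what the methods text describes. The authors aligned reads to GRCm38 (STAR 2.4.0b), counted them per gene with featureCounts 1.4.5 and deposited each library's raw counts. The deposited CPM divides a count by the library total, and the deposited RPKM is that CPM over the gene's exonic kilobases. Recomputing them gave the deposited values. Symbols were matched for 40340 of 41388 features.

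Features above 1 CPM in at least 3 libraries were tested, leaving out 355 ribosomal RNA features. Counts were scaled by TMM (factors 0.947 to 0.977 in AdGFP and 1.01 to 1.05 in AdNAMPT) and fitted with limma 3.58.1 (voom with sample weights, group as the only term, after the study's methods), with Benjamini-Hochberg adjustment. The lowest sample weight was 0.440, for AdNAMPT replicate 1. Alternatives used edgeR 4.0.16 and DESeq2 1.42.0, other scalings and filters, GC content, replicate number and each library left out. Scripts were tested on simulated data. Correlations used exact permutation over 40320 orders. No 2 libraries agreed within sampling noise. P-values measure the spread between mice. The counting floor covers counting error only.

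The genes and the other lists were chosen with earlier results of these data known. All 10 clock genes are named, with any called gene and the 3 tested genes of largest change from each other list, and the 5 genes most and least like Dbp and Arntl.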

Additional observations from a re-analysis of the deposited data

Results flagged for a closer look

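The levels of the 10 clock genes and the difference between activators and outputs, 11 values in all, were checked in both groups for a library far from the other 3, by Dixon's criterion, and 2 of the 22 checks stood out, where chance gives about 1 in 20. Per2 in AdNAMPT replicate 4 was the lowest of its group at 31.2 CPM, with the other 3 livers at 38.8 to 39.8 CPM and a gap of 0.887 of the whole range. Dbp in the same liver was the highest of its group at 51.6 CPM, with the others at 38.4 to 39.8 CPM and a gap of 0.891 of the range.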

How the results depend on the processing

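No clock gene passed the adjusted test under any alternative. With an unadjusted p under 0.05 as threshold, 2 passed in the main limma fit. Over 18 alternatives for each gene, unadjusted p was under 0.05 in 18 for Nr1d2, 16 for Per2, 4 for Per1 and 1 for Per3. The 4 for Per1 included GC correction (log2 fold change -0.33, limma unadjusted p = 0.0420, adjusted p = 0.539). Over all genes DESeq2 called 75 where limma called 34. Of 179 values of clock genes under alternatives, 155 kept their direction and 24 reversed, all in Npas2, Cry1, Dbp and Nr1d1. The log2 fold change of Cry1 was 0.00727 with edgeR, 0.00874 with DESeq2, 0.00317 without sample weights and 0.0408 with library size only. That of Dbp was -0.00647 with edgeR, -0.00443 with DESeq2, -0.00553 without sample weights, -0.00953 without the filter, -0.0876 with GC correction and -0.0625 with GC correction and replicate block. That of Npas2 was -0.11 with edgeR and -0.0873 with DESeq2, and it had no value at a mean count of at least 10. That of Nr1d1 was 0.0462 with library size only, a scaling that moved the median of all genes to 0.0859. Leaving out 1 library gave -0.13 to 0.0656 for Cry1, -0.0838 to 0.0953 for Dbp, -0.20 to 0.91 for Npas2 and -0.27 to 0.23 for Nr1d1. Without changing sign it gave -0.42 to -0.0875 for Per1 (highest without AdNAMPT replicate 2, lowest without AdNAMPT replicate 3), 0.0268 to 0.33 for Per3 (without AdNAMPT replicates 3 and 2), -0.29 to -0.0325 for Arntl (without AdGFP replicates 1 and 3) and -0.29 to -0.0119 for Ciart (without AdGFP replicates 2 and 3). The cause of these reversals was not tested. Nr1d2 ranged from -0.34 to -0.21 (adjusted p 0.173 to 0.615) and Per2 from 0.20 to 0.36 (adjusted p 0.205 to 0.638) over 18 alternatives. Same-numbered replicates deviated with r of 0.225, -0.0451, 0.213 and 0.00516, the best match for 2 of 4. So few numbers cannot settle whether they pair the mice. With a replicate block 41 genes and 0 clock genes were called (Per2 0.23, Nr1d2 -0.26), and with GC correction added 42. Low counts limit Npas2 and Arntl most.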
